A study of Homo sapiens with 24 samples.

Results

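The genes described here are 48 interferon-stimulated genes of antiviral defence, chosen by symbol and not by their values, of 52994 genes to which transcripts of the deposited tables could be assigned. The OAS, IFIT and IFI44 families are not among them. All 48 had at least 1 matched transcript; 45 passed the filter on low values at 96 h and 46 at 144 h. CXCL10 and CXCL11 passed at neither harvest, and LAMP3 passed at 144 h only.

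2 established acute myeloid leukaemia (AML) cell lines, ELF-153 and UCSD-AML1, were grown with the growth factor GM-CSF. They were left untreated or given 100 nM decitabine (DAC) on 4 consecutive days, and RNA was taken at 96 h or 144 h. DAC is a cytosine analogue that traps DNA methyltransferases and lowers DNA methylation. The 8 groups of 3 libraries each were ELF-153 with DAC and untreated ELF-153, and UCSD-AML1 with DAC and untreated UCSD-AML1, at each harvest. The libraries are described as technical triplicates of each line, so the p-values speak only of the variation among libraries of a line, which may be technical. In bulk libraries, more cells that use a gene and more RNA per cell cannot be told apart.

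Interferons of type I bind the receptor pair IFNAR1 and IFNAR2, whose kinases JAK1 and TYK2 phosphorylate transcription factors of the STAT family. With IRF9 these form a complex that binds the interferon-stimulated response element (ISRE) in promoters. The products block viral entry, replication and release, act as nucleic acid sensors or chemokines, or restrain the signal itself, as USP18 does. Agents that remove DNA methylation are known to switch on such genes in cancer cells.

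Values are scaled reads: reads per transcript divided by 1 factor per library by the authors, summed here to genes. They compare libraries of 1 harvest, not genes with each other, and the 96 h and 144 h tables were scaled separately, so no test was made between harvests. A gene was called higher or lower at an adjusted p under 0.05 in limma, adjusted over all 18799 genes and unmatched transcripts tested at 96 h or 18293 at 144 h. The libraries held 13148881 to 28528757 reads. The labelled cell type was checked on markers: PTPRC, CD34, CD33, KIT, SPI1 and GATA2 were detected in all groups of both lines, MPO averaged 0.614 scaled reads at most, and MECOM averaged at least 1209 in every UCSD-AML1 group but at most 12 in every ELF-153 group. Of the markers of other cells, IL3RA, CD8A, MS4A1 and EPCAM were listed at 0 in all groups; DDX58, a widely expressed RNA sensor, was too, so a listed 0 is not read as absence. CD14, CD68, CLEC4C and MARCO, markers of macrophages and plasmacytoid dendritic cells, averaged at most 8.83, which was CD68 in UCSD-AML1 with DAC at 96 h, against 0.526 untreated. COL1A1, a fibroblast marker, averaged 29.3 in UCSD-AML1 with DAC and 2.75 untreated at 96 h, and 39 and 2.51 at 144 h. The fibroblast markers COL1A2 and DCN averaged at most 1.08 in any UCSD-AML1 group. KRT8, an epithelial marker, averaged 164.4 in UCSD-AML1 with DAC and 63.6 untreated at 96 h, and 148.8 and 62 at 144 h. KRT18, also epithelial, was lower there with DAC. It averaged 126.3 and 150.8 untreated at 96 h, and 112.4 and 157.8 at 144 h. NKG7, a marker of natural killer cells, averaged 59.1 in ELF-153 with DAC and 23.4 untreated at 96 h, and 48.5 and 15.6 at 144 h. NCAM1, the other such marker listed, was lower there with DAC. It averaged 30.1 and 51.8 untreated at 96 h, and 30.7 and 39.9 at 144 h. The part of such markers in the results was not tested. CD3D averaged 139.7 to 195.2 in the ELF-153 groups, and CD4, CD79A and KRT18 were detected in both lines.

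With DAC, most of these genes rose in ELF-153, and many fell in UCSD-AML1 at 144 h. In ELF-153, 35 of 45 were higher with DAC at 96 h and none was lower, while 20.1% of all genes tested were called higher and 12.7% lower. At 144 h, 39 of 46 were higher and 1 was lower, against 20.4% and 18% of all genes. LAMP3, 1 of the 39, passed the filter only through its ELF-153 DAC libraries. In UCSD-AML1, 3 were higher and 9 lower at 96 h, where 19.7% of all genes were called higher and 19.6% lower; 18 were lower in a fit of the 6 libraries of the line and 17 with the mitochondrial rRNA share in the model. At 144 h 1 was higher and 22 were lower, against 20% and 26.2% of all genes. The same shares of all genes stand beside the counts of each role group below. In UCSD-AML1 at 96 h, the 9 of 45 lower is about the share of all genes. Role groups of 5 to 8 genes with 1 or 2 lower there are near it too, and such counts are not read as results. The median log2 difference over the members tested in ELF-153 was 1.76 at 96 h and 2.44 at 144 h, beside 0.16 and 0.11 over all genes. In UCSD-AML1 it was -0.38 and -0.75, beside -0.02 and -0.12. With TMM scaling the UCSD-AML1 median over all genes became 0.09 and 0.05 and that of the members -0.24 and -0.55. Among all genes called in UCSD-AML1, those higher were 50.1% at 96 h (60.3% with edgeR on recovered reads) and 43.3% at 144 h (53.7% with TMM and 54% with edgeR).

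**Figure D1:**
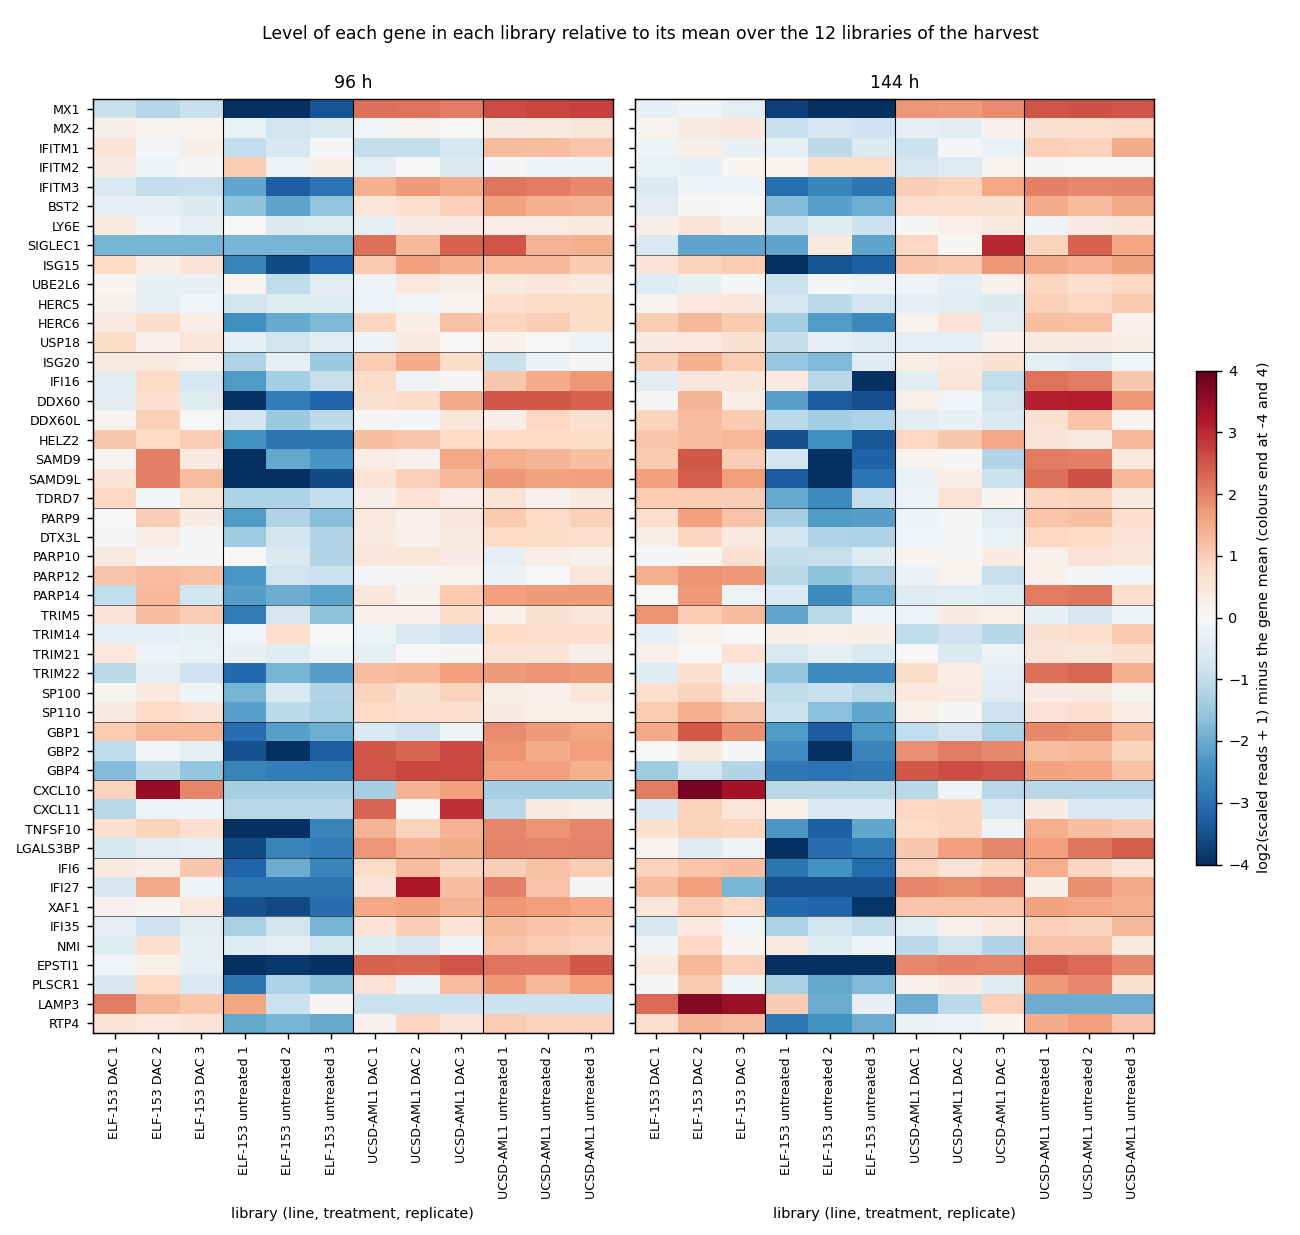
Each row is 1 of the 48 genes, ordered by role, and each column 1 library of ELF-153 with DAC, untreated ELF-153, UCSD-AML1 with DAC or untreated UCSD-AML1; colour gives log2(scaled reads + 1) minus the mean of the gene over the 12 libraries of that harvest. Untreated ELF-153 has the low levels, below untreated UCSD-AML1 by test for 42 genes at 96 h and 43 at 144 h.

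The lines started apart. Untreated ELF-153 was below untreated UCSD-AML1 for 42 of 45 genes at 96 h and 43 of 46 at 144 h, and above it for none; over all genes, ELF-153 was called higher for 22.8% and lower for 34.7% at 96 h, and higher for 28.9% and lower for 22.9% at 144 h. Of all genes called at 96 h, ELF-153 was higher for 39.7%, against 50.3% with TMM scaling and 52.4% with edgeR; at 144 h it was higher for 55.8%, against 48.1% and 49.1%. SIGLEC1 and IFI27 are among the lower calls at both harvests. SIGLEC1 passed the filter only through UCSD-AML1 libraries and reached 10 scaled reads in no ELF-153 library. IFI27 passed only with UCSD-AML1 libraries counted, as fewer than 3 ELF-153 libraries reached 10 at each harvest. The level in untreated ELF-153 was a median of 12.7% (96 h) and 13.2% (144 h) of that in untreated UCSD-AML1. The largest gaps were those of EPSTI1, with log2 differences of -6.79 ± 0.32 and -7.28 ± 0.28 (SE), and MX1, with -6.54 ± 0.19 and -6.53 ± 0.17. EPSTI1 had 1 read over the untreated ELF-153 libraries at 96 h and none at 144 h. Both of its fitted values therefore depend on the pseudocount. Against the floor of 3 reads over the group at 144 h, it was at least 157-fold lower than in untreated UCSD-AML1. Of its value, 74% at 96 h and 79.8% at 144 h lay on a retained-intron transcript.

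ELF-153 with DAC was also set against both UCSD-AML1 groups. At 96 h the 3 DAC libraries of ELF-153 lay above the 3 untreated UCSD-AML1 libraries for 3 members (ISG20, PARP12 and SP110), below them for 26 and overlapped them for 16, with a median level of 62.6% of theirs. Over all genes tested, 28.8% lay above and 35.1% below. At 144 h the counts were 7 above, 20 below and 19 overlapping, with a median of 74.9%, beside 35.9% of all genes above and 24.9% below. Set against DAC-treated UCSD-AML1 in place of the untreated cells, ELF-153 with DAC was above for 3 members and below for 15 at 96 h (25.3% and 27% of all genes). At 144 h it was above for 21 and below for 11 (39.9% and 19.2% of all genes), with a median level of 137% of DAC-treated UCSD-AML1. LAMP3, counted above both UCSD-AML1 groups at 144 h, passed the filter only through its ELF-153 DAC libraries.

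The DAC effect itself was tested for a difference between the lines. It was more positive in ELF-153 for 34 of 45 genes at 96 h and 42 of 46 at 144 h, and for none more negative. Over all genes the test called 16.4% more positive and 8.62% more negative at 96 h, and 19.4% and 10.2% at 144 h. The median difference over the members was 2.47 and 3.36 on the log2 scale, beside 0.18 and 0.19 over all genes. Scaling by TMM moved the share of more positive among all called genes to 53.7% at 96 h and 51.9% at 144 h, beside 65.6% at both as deposited (50.7% and 48.2% with edgeR), and left the medians of the members at 2.28 and 3.14.

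**Figure D2:**
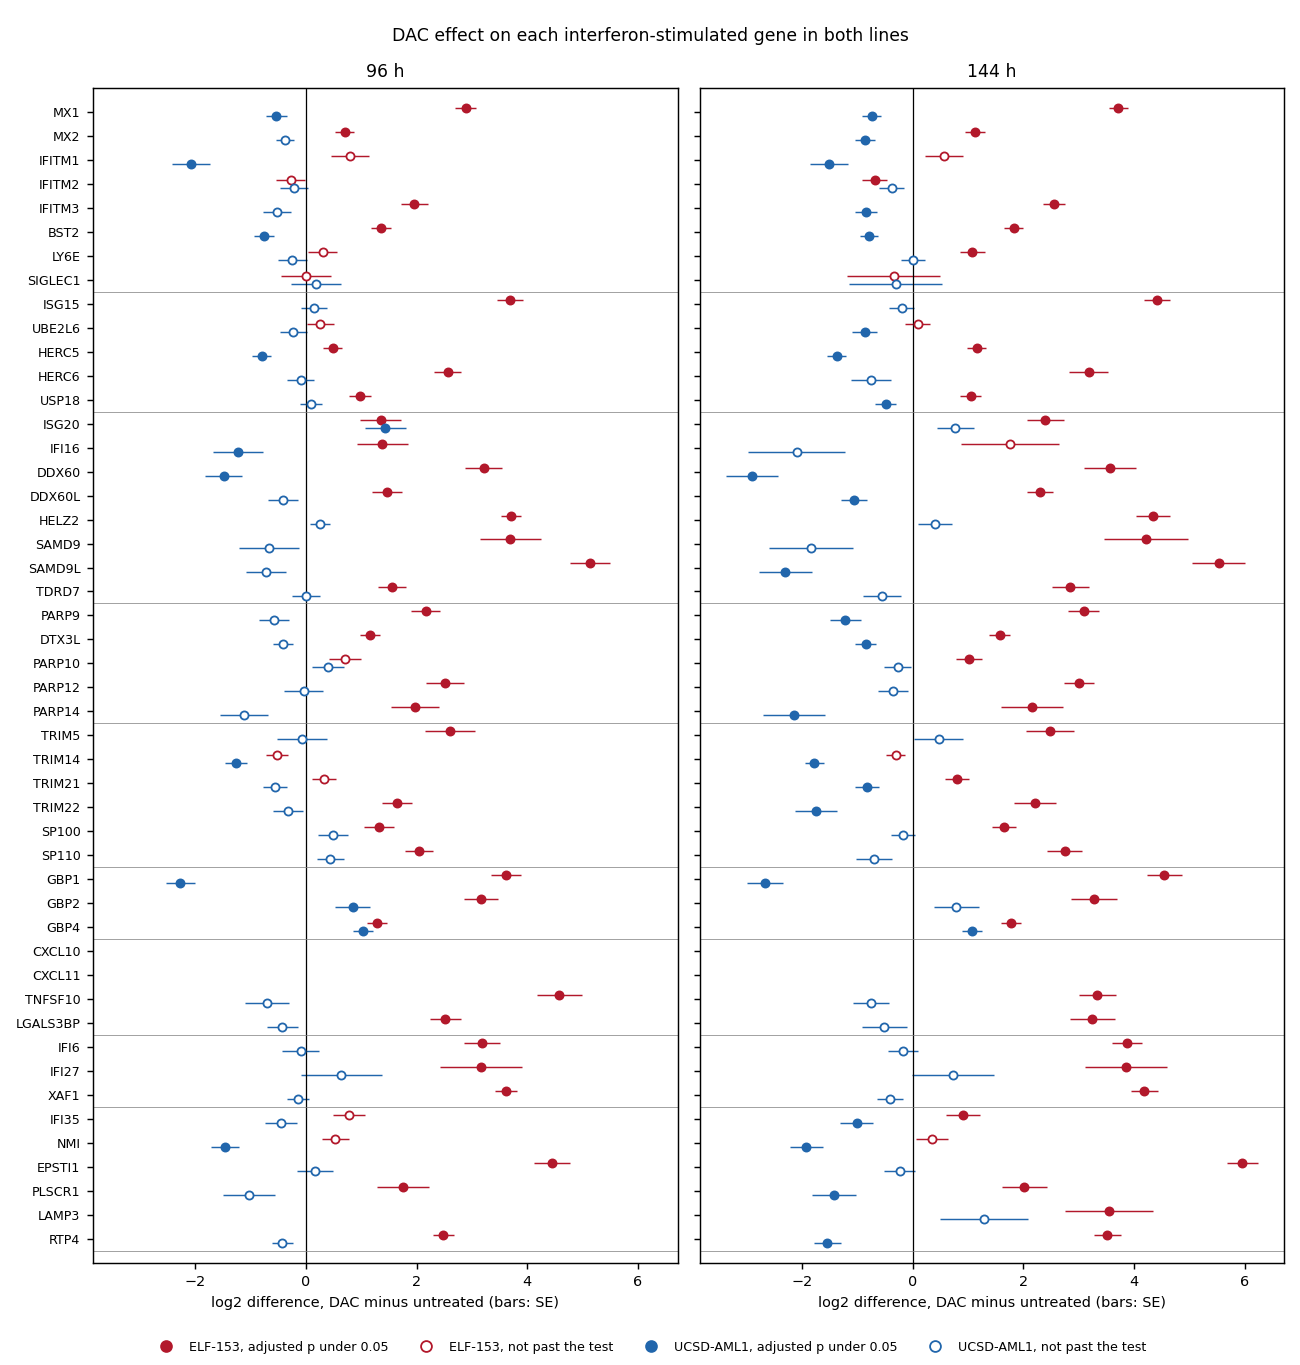
Log2 difference between DAC and untreated libraries for each gene tested, with its SE, in ELF-153 (red, upper point) and UCSD-AML1 (blue, lower point); filled points have an adjusted p under 0.05, and grey lines separate role groups. In ELF-153 the points run up to 5.13 at 96 h and 5.96 at 144 h, while most UCSD-AML1 points lie at or left of 0, with GBP4 right of 0 in both lines.

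Promoter sequence was searched for the elements that interferon-activated factors bind. RefSeq promoter windows on GRCh38.p14, 250 bases before to 50 after the gene start, were at hand for 39 of the 48 genes. The ISRE core, GAAA and GAAA separated by any 2 bases, searched on both strands, was present in 27 of 39 windows (69.2%), against 3.57% of all 35116 windows. The core of the gamma-activated site, TTCNNNGAA, was in 10 of 39 (25.6%), against 7.66% of all windows, and a match of this core may overlap an ISRE match. The windows held a median of 8 CpG dinucleotides, the site of DNA methylation, against 14 over all windows, with a range over the members of 0 to 50. In ELF-153, 22 of 26 tested genes with the core and 9 of 11 without it were higher at 96 h, against 20.1% of all genes. At 144 h the counts were 23 of 26 and 9 of 11, against 20.4%. In UCSD-AML1 at 96 h, 8 of 26 with the core and 1 of 11 without it were lower, against 19.6% of all genes. The median log2 differences there were -0.53 and -0.14. At 144 h, 15 of 26 and 4 of 11 were lower, against 26.2%, with medians of -0.84 and -0.76. A difference between genes with and without the core was not tested. A match describes the letters of the window and is not a bound site.

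The 200 bases before the start are shown for 6 genes that carry the pattern of calls: ISG15, DDX60 and GBP1, which rose in ELF-153, ISG20, which rose in both lines at 96 h, TRIM14, which rose in neither, and SAMD9L, which had the largest rise at 96 h and no ISRE core in its window. Each is written 5′ to 3′ on the strand of the gene, on GRCh38.p14, and capitals mark the ISRE core or its reverse complement. They lie at chr1:1013297-1013496 (plus strand) for ISG15, chr4:168318753-168318952 (minus) for DDX60, chr1:89065209-89065408 (minus) for GBP1, chr15:88638816-88639015 (plus) for ISG20, chr9:98119223-98119422 (minus) for TRIM14 and chr7:93148386-93148585 (minus) for SAMD9L.
ISG15: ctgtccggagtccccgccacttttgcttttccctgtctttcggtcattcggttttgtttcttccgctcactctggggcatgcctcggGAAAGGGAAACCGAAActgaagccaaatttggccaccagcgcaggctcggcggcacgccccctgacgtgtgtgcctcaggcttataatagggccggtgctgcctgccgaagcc
DDX60: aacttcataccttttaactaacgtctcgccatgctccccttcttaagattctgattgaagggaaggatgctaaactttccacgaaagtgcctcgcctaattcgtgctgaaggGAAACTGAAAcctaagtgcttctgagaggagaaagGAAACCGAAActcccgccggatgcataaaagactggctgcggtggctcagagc
GBP1: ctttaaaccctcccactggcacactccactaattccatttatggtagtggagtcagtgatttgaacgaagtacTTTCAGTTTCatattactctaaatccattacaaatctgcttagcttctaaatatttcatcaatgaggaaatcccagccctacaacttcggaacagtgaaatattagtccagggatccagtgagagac
ISG20: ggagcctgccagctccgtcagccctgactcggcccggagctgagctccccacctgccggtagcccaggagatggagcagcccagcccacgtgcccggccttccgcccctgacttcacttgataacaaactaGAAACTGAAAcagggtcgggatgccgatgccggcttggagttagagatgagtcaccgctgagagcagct
TRIM14: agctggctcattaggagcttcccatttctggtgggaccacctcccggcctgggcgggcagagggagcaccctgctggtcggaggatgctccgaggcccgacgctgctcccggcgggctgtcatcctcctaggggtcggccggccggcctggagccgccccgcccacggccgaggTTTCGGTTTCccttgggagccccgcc
SAMD9L: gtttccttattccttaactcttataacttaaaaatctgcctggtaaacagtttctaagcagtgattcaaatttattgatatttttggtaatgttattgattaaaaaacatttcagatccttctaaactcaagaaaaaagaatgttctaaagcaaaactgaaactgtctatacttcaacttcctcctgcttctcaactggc
ISG15 and DDX60 each held 2 matches and the GBP1, ISG20 and TRIM14 windows 1 match each. The TRIM14 window held 25 CpG in its 300 bases and the SAMD9L window held 0.

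The proteins that act at membranes and on viral entry were split. MX1 and MX2 are dynamin-like GTPases that block viral nucleocapsids, IFITM1, IFITM2 and IFITM3 hinder fusion of viral and cell membranes, BST2 (tetherin) holds budding virus at the surface, LY6E is a lipid-anchored surface protein and SIGLEC1 a macrophage lectin. In ELF-153, 4 of 8 rose at 96 h and 5 rose and 1 fell at 144 h; in UCSD-AML1, 3 of 8 fell at 96 h and 5 at 144 h, with none higher.

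MX1 had 138.3, 116.9 and 138.9 scaled reads in ELF-153 with DAC at 96 h, against 13.4, 15.4 and 22.8 in untreated ELF-153, and 1192, 1153 and 1080 in UCSD-AML1 with DAC, against 1587, 1661 and 1730 in untreated UCSD-AML1. In each line the DAC and untreated libraries did not overlap, and the libraries with the lowest UCSD-AML1 level still exceeded all of ELF-153. The log2 differences were 2.89 ± 0.19 in ELF-153 (adjusted p = 7.95e-08, limma) and -0.54 ± 0.19 in UCSD-AML1 (adjusted p = 0.0388), where leaving out any 1 library of the line gave adjusted p of 0.0702 to 0.109. At 144 h they were 3.72 ± 0.17 (adjusted p = 6.46e-09) and -0.74 ± 0.17 (adjusted p = 0.00363). Of the MX1 value at 96 h, 55% lay on a retained-intron transcript and 17% on coding transcripts, so the value is not that of the mRNA alone.

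BST2 and IFITM3 showed the same split. BST2 had 973.7, 945.4 and 831.6 scaled reads in ELF-153 with DAC at 96 h, against 402.1, 282.7 and 404.6 untreated. In UCSD-AML1 it had 1693, 1970 and 2362 with DAC, against 3728, 3290 and 3154 untreated. Both pairs of groups were apart, with log2 differences of 1.35 ± 0.18 (adjusted p = 6.68e-05) and -0.76 ± 0.18 (adjusted p = 0.00449), and at 144 h of 1.83 ± 0.17 (adjusted p = 3.08e-06) and -0.79 ± 0.17 (adjusted p = 0.00271). IFITM3 rose in ELF-153 by 1.96 ± 0.25 at 96 h and 2.55 ± 0.2 at 144 h on the log2 scale; in UCSD-AML1 it did not pass at 96 h (-0.52 ± 0.25, adjusted p = 0.118) and fell at 144 h (-0.85 ± 0.2, adjusted p = 0.00385).

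IFITM1 and IFITM2 behaved otherwise. IFITM1 had 7.87, 7.87 and 9.71 scaled reads in UCSD-AML1 with DAC at 96 h, against 40.9, 39.4 and 36.3 untreated, a log2 difference of -2.08 ± 0.34 (adjusted p = 0.000282), and in ELF-153 it did not pass (0.79 ± 0.34, adjusted p = 0.0867). IFITM2 did not pass in UCSD-AML1 and was the only member lower in ELF-153 at 144 h, with 436, 418.4 and 554.5 with DAC, against 568.4, 865.8 and 863.8 untreated (log2 difference -0.69 ± 0.23, adjusted p = 0.0314). That call was lost without replicate 1 or 2 of the DAC group or replicate 2 or 3 of the untreated group (adjusted p 0.0952 to 0.117), and the log2 difference was -0.01 with the mitochondrial rRNA share of each library in the model. The 3 IFITM genes lie together on chromosome 11 and are near-identical in parts, and 54% of the IFITM1 value was on a non-coding transcript, so how reads were split among them is uncertain. MX2 rose in ELF-153 at both harvests (0.7 ± 0.17 and 1.12 ± 0.18), LY6E at 144 h only (1.08 ± 0.22), and SIGLEC1 was at 0 in all 6 ELF-153 libraries at 96 h and passed no DAC test. The MX2 call at 96 h and the LY6E call at 144 h were each lost under at least 1 alternative.

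ISG15 is a ubiquitin-like protein that UBE2L6 and the ligase HERC5 attach to other proteins and USP18 removes; USP18 also restrains the receptor. HERC6 is the ligase of this reaction in mice. In ELF-153, 4 of these 5 rose at each harvest. In UCSD-AML1 1 fell at 96 h, which is about the share of all genes, and 3 fell at 144 h.

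ISG15 had 15277, 10369 and 12884 scaled reads in ELF-153 with DAC at 96 h, against 1371, 732.4 and 949.6 untreated. In UCSD-AML1 it had 18163, 27364 and 23597 with DAC, against 22153, 21841 and 18282 untreated. The ELF-153 groups were far apart (log2 difference 3.69 ± 0.23, adjusted p = 4.26e-08) and the UCSD-AML1 groups overlapped (0.14 ± 0.23, adjusted p = 0.673). At 144 h the log2 differences were 4.42 ± 0.23 (adjusted p = 2.08e-08) and -0.2 ± 0.23 (adjusted p = 0.502). In UCSD-AML1 ISG15 was called higher at 96 h with the mitochondrial rRNA share in the model (0.69, adjusted p = 0.00378) and lower at 144 h with the GC trend removed (-0.74, adjusted p = 0.000949). USP18 rose in ELF-153 by 0.97 ± 0.2 and 1.05 ± 0.19, and in UCSD-AML1 it gave 0.09 ± 0.2 at 96 h and -0.49 ± 0.19 at 144 h, where the adjusted p of 0.0479 became 0.0615 to 0.156 when libraries of either UCSD-AML1 group were left out singly, DAC replicate 3 excepted.

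HERC5 and UBE2L6 fell most in this group in UCSD-AML1. HERC5 had 504.1, 472.4 and 436.8 scaled reads in UCSD-AML1 with DAC at 144 h, against 1225, 1135 and 1306 untreated, and 685.5, 858.8 and 879.5 in ELF-153 with DAC, against 408.7, 299.7 and 376.9 untreated. The groups were apart in both lines, with log2 differences of -1.37 ± 0.17 (adjusted p = 3.58e-05) and 1.16 ± 0.17 (adjusted p = 0.000128). UBE2L6 was the member of the group that passed in ELF-153 at neither harvest (0.26 ± 0.25 and 0.09 ± 0.22), and it fell in UCSD-AML1 at 144 h (-0.87 ± 0.22, adjusted p = 0.00623). HERC6 rose in ELF-153 by 2.56 ± 0.25 and 3.18 ± 0.36.

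**Figure D3:**
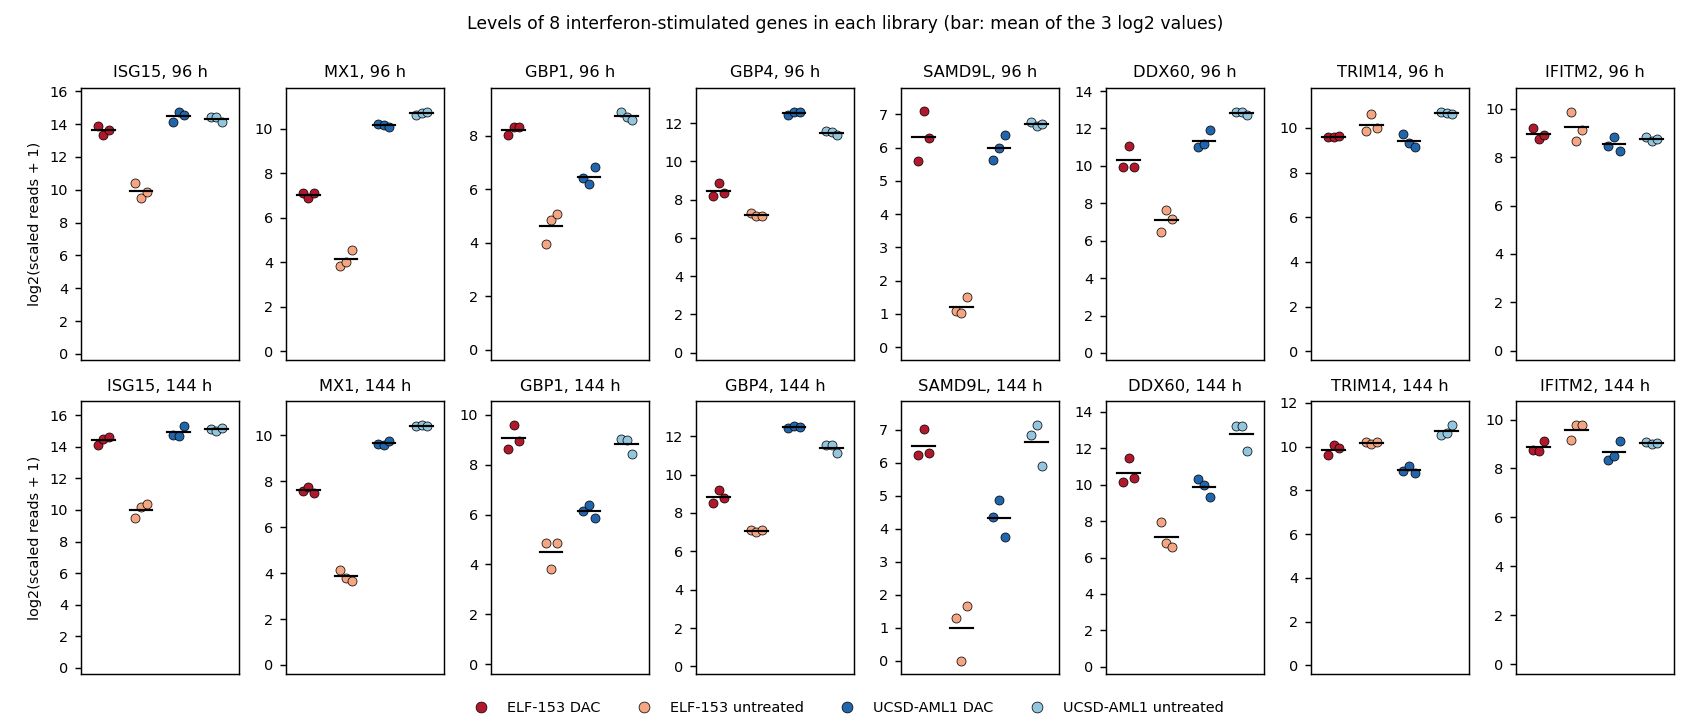
Log2(scaled reads + 1) of 8 genes in every library at 96 h (top) and 144 h (bottom), for ELF-153 with DAC, untreated ELF-153, UCSD-AML1 with DAC and untreated UCSD-AML1 from left to right; points are libraries and bars the mean of 3. ISG15, MX1, GBP1, SAMD9L and DDX60 are higher with DAC in ELF-153, GBP4 is higher with DAC in both lines, TRIM14 is lower with DAC in UCSD-AML1, and IFITM2 shows overlapping or near-overlapping groups.

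Genes for binding or cutting nucleic acid rose together in ELF-153: 8 of 8 at 96 h and 7 of 8 at 144 h, with a median log2 difference of 2.38 and 3.2. The group holds the exonuclease ISG20, the DNA sensor IFI16, the helicase-like proteins DDX60, DDX60L and HELZ2, the growth-restraining neighbours SAMD9 and SAMD9L, and the Tudor protein TDRD7. In UCSD-AML1 1 was higher and 2 were lower at 96 h, and 3 were lower at 144 h.

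SAMD9L had 47.4, 135.2 and 77.3 scaled reads in ELF-153 with DAC at 96 h, against 1.12, 1.02 and 1.82 untreated, which was 4 reads in the 3 untreated libraries together. Its log2 difference of 5.13 ± 0.36 (adjusted p = 1.23e-07) was the largest of any member in ELF-153 at that harvest. In UCSD-AML1 at 144 h it had 19.3, 28 and 12.4 with DAC, against 112.3, 140 and 58.4 untreated (log2 difference -2.3 ± 0.48, adjusted p = 0.00192). The difference in DAC effect between the lines was 5.85 ± 0.5 at 96 h (adjusted p = 6.02e-06) and 7.84 ± 0.68 at 144 h (adjusted p = 9.21e-06).

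DDX60 had 974.6, 2102 and 963.7 scaled reads in ELF-153 with DAC at 96 h, against 86.3, 195.7 and 144 untreated. In UCSD-AML1 it had 2024, 2283 and 3819 with DAC, against 7569, 7521 and 6824 untreated. Replicate 2 of ELF-153 with DAC and replicate 3 of UCSD-AML1 with DAC were the high libraries of their groups, and no DAC library overlapped an untreated one of its line. The log2 differences were 3.21 ± 0.34 (adjusted p = 6.64e-06) and -1.49 ± 0.34 (adjusted p = 0.00326) at 96 h, and 3.56 ± 0.47 (adjusted p = 8.22e-05) and -2.9 ± 0.47 (adjusted p = 0.000404) at 144 h.

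SAMD9 varied widely between libraries of a group. It had 977.5, 3637 and 1169 scaled reads in ELF-153 with DAC at 96 h, against 49.3, 218.2 and 175 untreated (3.69 ± 0.55, adjusted p = 0.000159), and 1199, 3288 and 1166 at 144 h, against 343.4, 33.2 and 60.9 untreated (4.21 ± 0.76, adjusted p = 0.000818). Replicate 2 was the high DAC library at both harvests and replicate 1 the high untreated library at 144 h, and the DAC and untreated libraries did not overlap. In UCSD-AML1 it did not pass at 96 h (-0.67 ± 0.55) or 144 h (-1.83 ± 0.76, adjusted p = 0.0654). SAMD9 was called lower in UCSD-AML1 at 96 h with the mitochondrial rRNA share (-2.15, adjusted p = 0.00161), and at 144 h with that share, with the 6 libraries of the line (adjusted p = 0.0171), with pseudocount 8 (adjusted p = 0.0462) and without untreated replicate 3 (adjusted p = 0.0396). HELZ2 rose in ELF-153 by 3.7 ± 0.18 and 4.34 ± 0.31 with no call in UCSD-AML1 (0.26 ± 0.18 and 0.4 ± 0.31).

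ISG20 rose in both lines at 96 h. It had 29.4, 28.8 and 25.4 scaled reads in ELF-153 with DAC, against 8.96, 16.4 and 7.29 untreated, and 45.2, 62.9 and 36.9 in UCSD-AML1 with DAC, against 11.5, 18.3 and 22.9 untreated. The log2 differences were 1.35 ± 0.37 (adjusted p = 0.0118) and 1.43 ± 0.37 (adjusted p = 0.0073), and at 144 h 2.4 ± 0.33 (adjusted p = 7.95e-05) and 0.77 ± 0.33 (adjusted p = 0.0698). With the mitochondrial rRNA share in the model the 96 h calls were lost in both lines (adjusted p = 0.263 in ELF-153 and 0.06 in UCSD-AML1). IFI16 was low, with 14.2, 34.9 and 11.7 in ELF-153 with DAC at 96 h, against 3.36, 7.17 and 10 untreated (1.38 ± 0.46, adjusted p = 0.0346), and 34.4, 16.9 and 20.4 in UCSD-AML1 with DAC, against 43, 56.8 and 67.8 untreated (-1.23 ± 0.46, adjusted p = 0.0489). Removing the GC trend of each library ended both IFI16 calls (adjusted p = 0.0595 and 0.0948), as did leaving out single libraries (adjusted p up to 0.166 in ELF-153 and 0.157 in UCSD-AML1), and neither line passed at 144 h. With the mitochondrial rRNA share the ELF-153 value of IFI16 at 96 h was 0.23 (adjusted p = 0.844). At 144 h IFI16 in UCSD-AML1 (-2.1, adjusted p = 0.0698) was called lower with 6 libraries, edgeR, pseudocount 8, coding transcripts only or the mitochondrial share (adjusted p 0.00706 to 0.0377), and in ELF-153 (1.76, adjusted p = 0.137) it was called higher without untreated replicate 1 (2.78, adjusted p = 0.0104).

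Enzymes of ADP-ribosylation had median log2 differences of 1.97 and 2.15 in ELF-153 and -0.42 and -0.85 in UCSD-AML1. PARP9 and the ubiquitin ligase DTX3L form a complex and overlap on opposite strands of chromosome 3; PARP10, PARP12 and PARP14 transfer single ADP-ribose units. In ELF-153, 4 of 5 rose at 96 h and 5 of 5 at 144 h. In UCSD-AML1 none passed at 96 h and 3 of 5 fell at 144 h. PARP9, DTX3L and PARP14 were also called lower in UCSD-AML1 at 96 h with the 6 libraries of the line (adjusted p = 0.00533, 0.0169 and 0.000606), the replicate block or the mitochondrial rRNA share.

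PARP9 had 634.3, 1206 and 852.1 scaled reads in ELF-153 with DAC at 144 h, against 153.2, 80.5 and 83.3 untreated, and 350.4, 370 and 284.8 in UCSD-AML1 with DAC, against 845.3, 887.8 and 627.4 untreated. DTX3L had 4963, 7753 and 5598 in ELF-153 with DAC, against 2506, 1851 and 1787 untreated, and 3893, 4081 and 3549 in UCSD-AML1 with DAC, against 7458, 7326 and 6074 untreated. No groups of either gene overlapped within a line. The log2 differences in ELF-153 and UCSD-AML1 were 3.09 ± 0.28 (adjusted p = 2.22e-06) and -1.22 ± 0.28 (adjusted p = 0.00356) for PARP9, and 1.57 ± 0.19 (adjusted p = 2.58e-05) and -0.85 ± 0.19 (adjusted p = 0.00274) for DTX3L. The libraries were made with a stranded kit, but the sources do not give whether counting used the strand, and reads in the overlap could be shared between these neighbours.

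PARP14 fell in UCSD-AML1 at 144 h to 93.3, 98 and 92.3 scaled reads with DAC, against 567.7, 596.3 and 217.1 untreated (-2.14 ± 0.56, adjusted p = 0.00814). In ELF-153 it had 132.5, 431.2 and 116.4 with DAC, against 87.1, 22.5 and 36.3 untreated (2.15 ± 0.56, adjusted p = 0.00903). With the mitochondrial rRNA share in the model its ELF-153 call was lost at both harvests (adjusted p = 0.345 and 0.429). PARP12 rose in ELF-153 by 2.51 ± 0.35 and 3 ± 0.27, and its DAC libraries lay above those of either UCSD-AML1 group at both harvests. Coding transcripts held 22.5% of the PARP12 value at 96 h and 19.3% at 144 h.

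Of the TRIM proteins and nuclear-body proteins, 4 of 6 rose in ELF-153 at 96 h and 5 at 144 h, while 1 fell in UCSD-AML1 at 96 h and 3 at 144 h. TRIM5 and TRIM22 restrict retroviruses, TRIM21 is a cytosolic antibody receptor, TRIM14 is an adaptor of RNA and DNA sensing, and SP100 and SP110 are nuclear-body proteins. TRIM14 had 479.7, 550.2 and 436.8 scaled reads in UCSD-AML1 with DAC at 144 h, against 1493, 1580 and 2003 untreated. In ELF-153 it had 777.8, 1063 and 971.8 with DAC, against 1174, 1123 and 1172 untreated. It fell in UCSD-AML1 at both harvests (-1.27 ± 0.2, adjusted p = 0.000277, and -1.78 ± 0.17, adjusted p = 5.01e-06) and was below the untreated level in ELF-153 too without passing (-0.53 ± 0.2, adjusted p = 0.0604, and -0.31 ± 0.17, adjusted p = 0.167). TMM scaling, edgeR, the replicate block and the mitochondrial rRNA share each brought the ELF-153 difference at 96 h past the test (adjusted p 0.022 to 0.0403).

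TRIM22 had 680, 1468 and 858.7 scaled reads in ELF-153 with DAC at 144 h, against 322.3, 161.1 and 164.4 untreated, and 1587, 1170 and 720.6 in UCSD-AML1 with DAC, against 4332, 4621 and 2542 untreated. Neither line's groups overlapped (2.21 ± 0.38, adjusted p = 0.000574, and -1.75 ± 0.38, adjusted p = 0.0027). TRIM21 rose by 0.8 ± 0.22 in ELF-153 and fell in UCSD-AML1 (-0.82 ± 0.22) at 144 h only. SP100 rose in ELF-153 by 1.32 ± 0.27 and 1.65 ± 0.22, SP110 by 2.04 ± 0.25 and 2.75 ± 0.32 and TRIM5 by 2.6 ± 0.45 and 2.48 ± 0.44, and none of them passed in UCSD-AML1. With the mitochondrial rRNA share in the model the 96 h values in ELF-153 were 0.38 for SP100 (adjusted p = 0.323) and 1.02 for TRIM5 (adjusted p = 0.156). Only 6.7% of the SP110 value and 23.5% of the SP100 value at 96 h was on coding transcripts.

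The guanylate-binding proteins are GTPases that attack pathogen vacuoles and lie side by side on chromosome 1. All 3 rose in ELF-153 at both harvests. In UCSD-AML1 they parted: GBP1 fell and GBP4 rose at both harvests, and GBP2 rose at 96 h. GBP1 had 259.5, 320.9 and 323.8 scaled reads in ELF-153 with DAC at 96 h, against 14.6, 27.7 and 32.8 untreated, and 84.6, 71.9 and 111.7 in UCSD-AML1 with DAC, against 478.2, 420.7 and 387.1 untreated. At 144 h it had 397.6, 762.5 and 496.3 in ELF-153 with DAC, against 28.3, 13 and 27.8 untreated, and 70.6, 83.1 and 57.4 in UCSD-AML1 with DAC, against 527, 505.2 and 341.1 untreated. ELF-153 was the higher line with DAC and UCSD-AML1 the higher line without it, and no groups within a line overlapped. The log2 differences were 3.61 ± 0.27 (adjusted p = 2.73e-07) and -2.27 ± 0.27 (adjusted p = 2.17e-05) at 96 h, and 4.55 ± 0.32 (adjusted p = 2.35e-07) and -2.67 ± 0.32 (adjusted p = 3.1e-05) at 144 h. The difference between the lines in DAC effect was 5.87 ± 0.38 at 96 h (adjusted p = 3.61e-07), the largest of the members at that harvest, and 7.22 ± 0.46 at 144 h (adjusted p = 5.42e-07).

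GBP4 had 292.7, 467.5 and 322.9 scaled reads in ELF-153 with DAC at 96 h, against 155.7, 142.4 and 138.5 untreated, and 5524, 6129 and 6042 in UCSD-AML1 with DAC, against 3039, 3008 and 2606 untreated. All DAC libraries lay above the untreated ones of their line. The log2 differences were 1.28 ± 0.18 (adjusted p = 8.94e-05) and 1.03 ± 0.18 (adjusted p = 0.000448), and at 144 h 1.77 ± 0.18 (adjusted p = 7.56e-06) and 1.08 ± 0.18 (adjusted p = 0.000468). The difference between the lines in this effect did not pass at either harvest (0.24 ± 0.25, adjusted p = 0.506, and 0.69 ± 0.26, adjusted p = 0.0622). GBP2 had 17, 33.1 and 27.4 in ELF-153 with DAC at 96 h, against 2.24, 1.02 and 2.73 untreated (3.16 ± 0.31, adjusted p = 3.6e-06), and 204.6, 182.1 and 225.3 in UCSD-AML1 with DAC, against 125.8, 100.8 and 114.3 untreated (0.84 ± 0.31, adjusted p = 0.0457). The UCSD-AML1 call for GBP2 was lost without any 1 library of the line (adjusted p 0.0736 to 0.138). These family members are similar in sequence, so the split of reads among them is uncertain.

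Among the secreted ligands, TNFSF10 (TRAIL, a death ligand) and LGALS3BP (a galectin-binding glycoprotein) rose in ELF-153 at both harvests and passed in UCSD-AML1 at neither. TNFSF10 had 70.1, 82.9 and 71.4 scaled reads in ELF-153 with DAC at 96 h, against 1.12, 1.02 and 6.38 untreated (4.58 ± 0.4, adjusted p = 1.22e-06), and 115.1, 83.2 and 118.5 in UCSD-AML1 with DAC, against 176.2, 157.6 and 176.6 untreated (-0.7 ± 0.4, adjusted p = 0.185). The chemokines CXCL10 and CXCL11, which draw T cells through CXCR3, were too low to be tested. CXCL10 had 3.79, 27 and 8.81 scaled reads in ELF-153 with DAC at 96 h and 8.23, 29.4 and 20.9 at 144 h, and was at 0 in every untreated library of both lines. Set against a floor of 3 reads over the untreated group, that is at least 13-fold higher at 96 h and at least 19.7-fold at 144 h. In UCSD-AML1 with DAC it had 0, 5.62 and 6.8 at 96 h and 0, 0.875 and 0 at 144 h. CXCL11 averaged 8.83 ± 7.26 in UCSD-AML1 with DAC at 96 h, against 1.14 ± 0.993 untreated (SD, n = 3 each), with overlapping libraries, and at most 1.14 in the other groups at either harvest.

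The genes of cell death and mitochondria, IFI6 (which protects cells from apoptosis), IFI27 (a mitochondrial protein) and XAF1 (which opposes the apoptosis inhibitor XIAP), all rose in ELF-153 at both harvests, and none passed in UCSD-AML1. XAF1 had 111.8, 104.7 and 131.1 scaled reads in ELF-153 with DAC at 96 h, against 7.84, 7.17 and 10.9 untreated, and 288.2, 304.6 and 251.6 in UCSD-AML1 with DAC, against 328.2, 313.5 and 287.7 untreated. The ELF-153 groups were apart (3.61 ± 0.2, adjusted p = 1.65e-08) and the UCSD-AML1 groups overlapped (-0.14 ± 0.2, adjusted p = 0.62). IFI6 rose in ELF-153 by 3.18 ± 0.33 and 3.88 ± 0.27. IFI27 was at 0 in all untreated ELF-153 libraries and had 3.79, 20.9 and 5.87 with DAC at 96 h and 25.6, 34.9 and 2.2 at 144 h, at least 10-fold and 21.1-fold higher by group mean against the same floor; with the mitochondrial rRNA share in the model the 96 h call was lost (adjusted p = 0.13).

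The remaining genes act in signalling and trafficking: IFI35 and its partner NMI, EPSTI1, the scramblase PLSCR1, the lysosomal protein LAMP3 and the receptor transporter RTP4. In ELF-153, 3 of 5 tested rose at 96 h and 5 of 6 at 144 h, and in UCSD-AML1 1 fell at 96 h and 4 at 144 h. EPSTI1 had 26.5, 33.1 and 21.5 scaled reads in ELF-153 with DAC at 96 h, against 0, 1.02 and 0 untreated (4.45 ± 0.32, adjusted p = 1.96e-07), and 43, 84.4 and 63.7 at 144 h, against 0 in all 3 untreated libraries, at least 64.2-fold higher. In UCSD-AML1 its groups overlapped, with 150.5, 147.2 and 169 with DAC at 96 h, against 130, 125.6 and 164.8 untreated (0.16 ± 0.32, adjusted p = 0.733). Of the EPSTI1 value 74% was on a retained-intron transcript, and over coding transcripts alone its ELF-153 difference did not pass (1.24, adjusted p = 0.178, and 1.7, adjusted p = 0.0623).

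RTP4 rose in ELF-153 by 2.48 ± 0.19 and 3.52 ± 0.25 and fell in UCSD-AML1 at 144 h, with 184, 192.4 and 227.4 scaled reads with DAC, against 601.3, 687.4 and 480.7 untreated (-1.54 ± 0.25, adjusted p = 0.000295). NMI had 380.6, 461.9 and 346.8 in UCSD-AML1 with DAC at 144 h, against 1778, 1780 and 1053 untreated. It fell at both harvests (-1.46 ± 0.25 and -1.92 ± 0.29, adjusted p = 0.000502 and 0.0002) and passed in ELF-153 at neither (0.53 ± 0.25 and 0.35 ± 0.29). PLSCR1 and IFI35 moved in opposite directions in the lines at 144 h, PLSCR1 by 2.02 ± 0.4 in ELF-153 and -1.42 ± 0.4 in UCSD-AML1 and IFI35 by 0.91 ± 0.3 and -1.01 ± 0.3; the ELF-153 call of PLSCR1 was lost with the mitochondrial rRNA share in the model (adjusted p = 0.103), and that of IFI35 (adjusted p = 0.0304) without replicate 2 or 3 of the DAC group or 1 or 3 of the untreated group (adjusted p 0.069 to 0.144). The UCSD-AML1 call of PLSCR1 was lost with the GC trend removed (-0.56, adjusted p = 0.0649) and without DAC replicate 3 or untreated replicate 2 (adjusted p = 0.0512 and 0.0545), and that of IFI35 without DAC replicate 1 (-0.77, adjusted p = 0.0702). Coding transcripts held only 0.7% of the IFI35 value and 6.6% of the PLSCR1 value at 144 h. The values of both genes are therefore not those of the mRNA alone. LAMP3, at 0 in untreated UCSD-AML1 at both harvests, rose in ELF-153 at 144 h to 18.3, 49.5 and 41.7, against 7.26, 0 and 2.14 untreated (3.55 ± 0.8, adjusted p = 0.00354).

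Joining both lines, 6 genes were called lower in UCSD-AML1 and higher in ELF-153 at 96 h (BST2, DDX60, GBP1, HERC5, IFI16 and MX1). Of these, BST2, DDX60 and GBP1 held in both lines under every alternative. The ELF-153 call of HERC5 at 96 h (0.48 ± 0.17, adjusted p = 0.0424) was lost in 13 of 16 alternatives, with adjusted p of 0.0501 to 0.228. At 144 h they were 18: BST2, DDX60, DDX60L, DTX3L, GBP1, HERC5, IFI35, IFITM3, MX1, MX2, PARP14, PARP9, PLSCR1, RTP4, SAMD9L, TRIM21, TRIM22 and USP18. Under at least 1 alternative, DDX60L, IFI35, PLSCR1 and USP18 lost their UCSD-AML1 call at 144 h. IFI35, PARP14, PLSCR1 and TRIM21 lost their ELF-153 call in the same way. Genes higher in both lines were GBP2, GBP4 and ISG20 at 96 h and GBP4 at 144 h. In ELF-153, 34 genes were called higher at both harvests. In UCSD-AML1, 8 were lower at both (BST2, DDX60, GBP1, HERC5, IFITM1, MX1, NMI and TRIM14) and GBP4 was higher at both. The share of all genes called jointly in both lines, or at both harvests, was not computed. The joint counts therefore list members and are not set against all genes.

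Other genes of the interferon pathway were read from listed groups. Of 20 genes for interferons of types I and III, only IFNB1 passed the filter. IFNB1 had 0, 5.23 and 4.89 scaled reads in ELF-153 with DAC at 96 h, against 0 in all 3 untreated libraries, and 17.7, 23.6 and 43.7 in UCSD-AML1 with DAC, against 21, 26.6 and 11 untreated. It passed the DAC test in neither line at either harvest (adjusted p 0.054 to 0.577). IFNG did not pass the filter.

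Beside the counts of these lists stand the shares of all genes. In ELF-153, 20.1% were called higher and 12.7% lower at 96 h, and 20.4% and 18% at 144 h. In UCSD-AML1 the shares were 19.7% and 19.6% at 96 h, and 20% and 26.2% at 144 h. Of 8 receptors and kinases tested, 5 were higher in each line at 96 h and none lower, and at 144 h 6 were higher in ELF-153 and 3 in UCSD-AML1. IFNAR1 rose in ELF-153 by 1.07 ± 0.18 and 1.01 ± 0.18, and JAK2, a kinase of the gamma receptor, rose in both lines. Of 9 STAT and IRF genes, 6 rose at 96 h and 7 rose and 1 fell at 144 h in ELF-153, against 1 higher and 2 lower, and 2 higher and 3 lower, in UCSD-AML1. IRF9 rose in ELF-153 by 2.93 ± 0.16 and in UCSD-AML1 by 0.54 ± 0.16 at 96 h.

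Of 5 inhibitors of interferon signalling, 2 were higher in UCSD-AML1 at each harvest, against 19.7% and 20% of all genes. In ELF-153, 1 and then 2 were higher, against 20.1% and 20.4%, so the 1 of 5 at 96 h is about the share of all genes. SOCS3, a feedback inhibitor of JAK kinases, rose in UCSD-AML1 by 1.43 ± 0.25 and 2.01 ± 0.21 and in ELF-153 at 144 h by 1.02 ± 0.21, and SOCS1 rose in UCSD-AML1 by 1.2 ± 0.22 and 0.88 ± 0.26. Of 7 tested sensors of RNA and DNA, 4 rose in ELF-153 at each harvest and 1 fell at 144 h, against 1 higher and 1 lower, and 1 higher and 3 lower, in UCSD-AML1. Counts of 1 sensor of 7 are not above the shares of all genes. The OAS, IFIT and IFI44 genes rose in ELF-153 in 10 of 11 cases at 96 h and 11 of 11 at 144 h, with 2 higher and 4 lower, and then 7 lower, in UCSD-AML1.

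Libraries of 1 group differed along with base composition. Over the 45 members tested at 96 h, the deviation of a single library from the mean of the other libraries of its group had a Pearson correlation with transcript GC of -0.56 for replicate 2 of ELF-153 with DAC and 0.55 for replicate 1. Over the 46 members at 144 h it was 0.76 for replicate 3 of untreated UCSD-AML1 and -0.58 for replicate 1 of untreated ELF-153. The points are genes that share a library, and the correlation is given as a description. The share of mitochondrial rRNA in a library differed as well: among ELF-153 libraries it was 37.3% to 49.8% with DAC and 13.1% to 35% untreated at 96 h, and 42.8% to 53.6% with DAC and 16.6% to 38.2% untreated at 144 h. In UCSD-AML1 it was 61.7% to 63.8% with DAC and 49.3% to 51.3% untreated at 96 h, and 38.7% to 58.4% with DAC and 44.5% to 52.1% untreated at 144 h. With each library's GC trend removed, 38 genes were higher in ELF-153 at 96 h and 39 at 144 h, and 14 and 26 were lower in UCSD-AML1. With the mitochondrial rRNA share in the model, 29 and 38 were higher in ELF-153, and the median log2 difference of the members was 1.27 and 1.78.

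**Figure D4:**
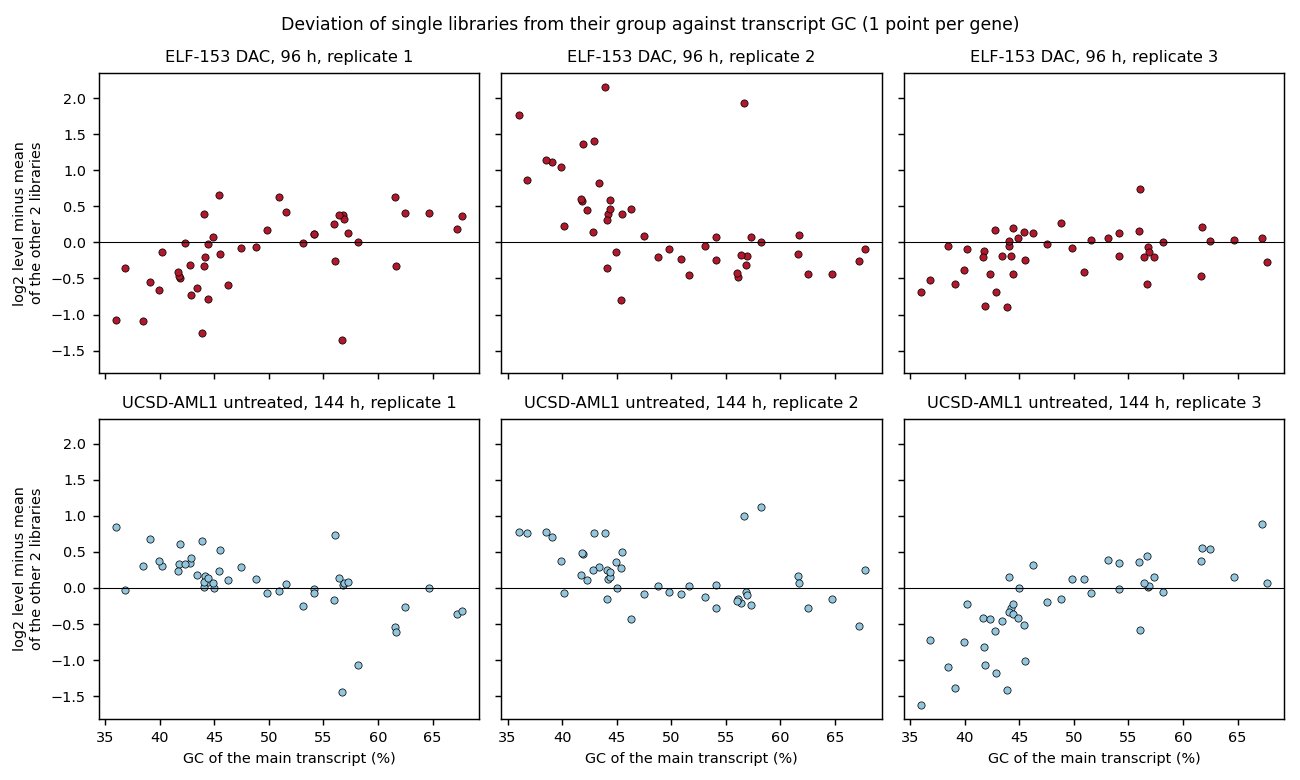
Log2 level of each gene in 1 library minus the mean of the other 2 libraries of its group, against the GC content of its main transcript, for ELF-153 with DAC at 96 h (top) and untreated UCSD-AML1 at 144 h (bottom). Genes of low GC mostly lie above 0 in replicate 2 of the ELF-153 group and below 0 in replicate 3 of the UCSD-AML1 group, with Pearson correlations of -0.56 and 0.76.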

How the data were processed

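RNA was sequenced from 24 stranded, rRNA-depleted, paired-end libraries. The deposited values are a signal: reads per transcript divided by 1 size factor per library, by the authors, within the table of each harvest. FastQC, TopHat2, STAR, HTSeq, DESeq2 and hg19 are named per the submitters' processing notes, with no role or version; the strand setting of the counting was not stated there. Dividing by the step of each library, the scaled value of 1 read, gave whole reads, within 0.01, for 100% of values. The unit is therefore not a raw count, and edgeR was run on recovered reads only as an alternative, which called 2036 genes more positive in ELF-153 in the 96 h test of the difference in DAC effect, against 3085 in limma.

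Transcripts were summed to genes with GENCODE names (181859 of 204940 transcripts matched, holding 97.8% of the value). limma 3.58.1 (trend, robust) in R 4.3.3 fitted 4 group means per harvest to log2(value + 1) of genes with at least 10 scaled reads in 3 of 12 libraries, with Benjamini-Hochberg adjustment over all genes tested, including transcripts matched to no gene, and a threshold of 0.05. A log2 difference on this scale understates the change of low genes. Errors of log2 differences are standard errors. Alternatives were pseudocount 8, no filter, TMM, edgeR 4.0.16, a replicate block, 1 library left out, the 6 libraries of a line and the mitochondrial rRNA share as covariate. Coding transcripts only and removal of a GC trend (loess, span 0.3; GC known for 93.7% and 93.9% of genes), alone and with the block, were chosen after seeing the data. By the data, replicate numbers did not clearly pair the libraries. In UCSD-AML1 at 144 h the deviations of same-numbered libraries correlated at 0.13, 0.12 and 0.26. Untreated replicate 2 correlated with DAC replicate 1 at 0.13 as well. In ELF-153 at 96 h the same-numbered values were 0.29, 0.32 and -0.04. The members, lists and the rule for named genes (a listed 16 members, the largest calls of each comparison, members called in opposite directions and members not tested) were chosen with earlier results of these data known; SP100, SP110, PARP12, HERC6, LY6E, TRIM5 and the pathway genes given with values were named after their values were seen where that rule does not reach them. Bounds against a group at 0 use a floor of 3 reads over the group and cover counting error only. A single gene of the pathway lists is not reported here.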

Additional observations from a re-analysis of the deposited data

Results flagged for a closer look

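The DAC effect differed between the lines by limma's interaction test for 34 genes at 96 h and 42 at 144 h, and the 4 largest differences of each harvest (ELF-153 minus UCSD-AML1, log2 scale) are given for a closer look. At 96 h they were GBP1 at 5.87, SAMD9L at 5.85, TNFSF10 at 5.28 and DDX60 at 4.70. At 144 h they were SAMD9L at 7.84, GBP1 at 7.22, DDX60 at 6.46 and EPSTI1 at 6.19. EPSTI1 was at 0 in untreated ELF-153 at 144 h, so its difference depends on the pseudocount. Of its value at 144 h, 79.8% lay on a retained-intron transcript. Adjusted p (limma) ran from 3.61e-07 for GBP1 to 4.21e-05 for TNFSF10 at 96 h, and from 5.42e-07 for GBP1 to 5.94e-05 for DDX60 at 144 h. Single outlying libraries were not tested, since every group had 3 libraries.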

How the results depend on the processing

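No call of a member turned its direction under any alternative run. Of the calls in ELF-153, 25 of 35 higher at 96 h and 32 of 39 at 144 h held under every alternative that gave a value. LAMP3, 1 of the 32, passed the filter only through its ELF-153 DAC libraries. In UCSD-AML1, 7 of 9 lower at 96 h and 18 of 22 at 144 h held in this way. For the untreated lines, 34 of 42 lower calls held at 96 h and 37 of 43 at 144 h. For the difference in DAC effect, 29 of 34 and 34 of 42 held. In UCSD-AML1 at 96 h, 5 genes were higher with the 6 libraries of the line, with the GC trend removed and with the GC trend removed with the replicate block, and 18, 14 and 15 were lower; 17 were lower with the mitochondrial rRNA share and 14 with the replicate block. At 144 h, 3 were higher in UCSD-AML1 with its 6 libraries, edgeR or pseudocount 8, and 2 with the GC trend removed, TMM or the mitochondrial share. In ELF-153, 1 was lower at 96 h with TMM, edgeR, the mitochondrial share or the replicate block, and 0 at 144 h with the mitochondrial share or the GC trend removed with the block. Untreated ELF-153 was higher for 1 member with TMM or edgeR at 96 h and with the replicate block at 144 h. The replicate block left 1 higher and 22 lower in UCSD-AML1 at 144 h. Leaving out 1 library gave 2 higher and 7 to 9 lower in UCSD-AML1 at 96 h, 1 and 20 to 23 at 144 h, 33 to 36 and 0 to 1 in ELF-153 at 96 h, and 36 to 39 and 0 to 1 at 144 h. For untreated lines it gave 0 to 1 higher at both harvests, with 39 to 42 lower at 96 h and 40 to 43 at 144 h, and for the difference in DAC effect 32 to 35 and 37 to 43 higher with 0 lower. Over all genes, ELF-153 at 96 h had 3773 higher and 2379 lower, 2215 and 1398 with the mitochondrial share, and 2479 higher with its 6 libraries; the difference in DAC effect had 3548 higher at 144 h and 2126 with edgeR. The cause of these shifts was not tested. Reads of near-identical relatives and of overlapping neighbours may be split by the counting, and low genes such as CXCL10 and CXCL11 were limited by depth.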
